A study of Danio rerio with 13 samples.

Results

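The genes described here are the 76 of the 32677 genes in the RNA table whose KEGG annotation holds the pathway of ribosome biogenesis in eukaryotes and does not hold the pathway of the ribosome itself. No gene carried both pathways, so the rule removed no gene, and the 80 genes with the ribosome pathway (mainly ribosomal proteins) stood outside the list. The rule used annotation only and no measured value. Of the 76 members, 73 had enough counts to be tested. The other 3, nxf1a and the genes ENSDARG00000089034 and ENSDARG00000095404, had nearly no reads and were annotated through their similarity to a nuclear RNA export factor. The best protein hit was a zebrafish protein for 72 members and a chicken or platypus protein for 4 (mdn1, spata5, pop1 and csnk2a3). Names follow that hit, and for pop1 the identity to the hit was only 48%.

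Ribosome production starts in the nucleolus, where RNA polymerase I makes a long precursor of the ribosomal RNAs. Small nucleolar ribonucleoproteins (snoRNPs) of the box C/D and box H/ACA kinds guide its methylation and pseudouridylation, a large complex called the small subunit processome folds and cuts the part that becomes the small subunit, and GTPases and AAA ATPases drive the assembly of the large subunit. Both precursors leave the nucleus with exportin 1 and its partner Ran, and the final cuts and quality checks take place in the cytoplasm. The work is costly for a cell and is known to follow growth and division.

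The study asked how cold changes DNA methylation and gene expression in ZF4 cells, a fibroblast line that was derived from zebrafish embryos. Cells were kept at 28°C, the control temperature, or moved to 18°C for 5 days (the 18°C/5d libraries) or 30 days (the 18°C/30d libraries). The paper describes growth arrest during the shorter cold exposure, then faster growth that stayed slower than in the control. RNA was sequenced in 3 libraries for each of the 3 conditions, and methylated DNA was enriched with an antibody and sequenced (MeDIP) in 1 library per condition, made from 3 pooled cultures. The labels name no genotype, allele or further agent, and all libraries come from 1 cell line. The p-values below therefore measure the spread between these libraries. In bulk RNA of this kind, fewer cells of a type and less RNA per cell cannot be told apart.

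The RNA libraries held between 21407769 and 44853311 counted reads, and those with the replicate number 3 were the smallest in each condition. In the number 3 libraries the 10 most abundant genes took 15.1 to 16% of the reads, against 4.99 to 6.28% in the others. The 28°C library with the number 3 also stood apart from the other 28°C libraries in its cell cycle genes. The summed level of 7 proliferation genes, in CPM (counts scaled to the library total with TMM factors), was 1143, 1047 and 52.3 in replicates 1, 2 and 3 at 28°C, 648, 631 and 538 after 5 days and 516, 770 and 329 after 30 days, and 0 of the 7 genes passed the test. The keratin krt4 was at 171 CPM in that library, against 3.87 and 8.31 in the other 28°C libraries and 2.645 or less in the cold libraries. The summed level of 5 epithelial markers was 168, 164 and 339 CPM at 28°C, 111, 102 and 321 after 5 days and 103, 150 and 262 after 30 days. Of these markers, cdh1 was at 162, 155 and 167 CPM at 28°C, 106, 98.8 and 318 after 5 days and 100, 149 and 258 after 30 days, and epcam was at 0.092 CPM or less in all libraries. Fibroblast collagens were abundant in all libraries (col1a1a alone at 1827 CPM or more), vim was low at 0.862 to 2.64 CPM, and the summed level of the 7 fibroblast markers ranged from 5313 to 10349 CPM at 28°C, 5439 to 7480 after 5 days and 4700 to 8156 after 30 days. Some results that rest on the 28°C library with the number 3 are given with and without it, and others only with it. Its part in the other differences was not tested.

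At 28°C the members spanned a wide range of transcript levels. On the per-length scale (deposited RPKM) the highest member was ran, the GTPase that gives nuclear transport its direction, at 350, 309.9 and 209.2 RPKM in replicates 1, 2 and 3 (289.7 ± 72.5, SD, n = 3). The gene annotated as pop1, a protein subunit of RNase MRP and RNase P, followed at 448, 315 and 27.8 RPKM, and nop10, the smallest protein of the box H/ACA snoRNP, at 219, 147 and 18.33 RPKM. Both were more than 5-fold lower in replicate 3 than in the other replicates, so their rank rests on replicates 1 and 2. The next were 3 proteins of the box C/D snoRNP, with mean levels of 126 ± 36.8 RPKM for the methyltransferase fbl (fibrillarin), 88.9 ± 23.6 for nop58 and 83.9 ± 16.1 for nop56 (SD, n = 3). The replicates of each neighbouring pair in this order overlapped. Ranks on this scale also rest on the deposited gene lengths, such as 1892 bases for fbl, 5047 for nop58 and 10642 for nop56. In CPM, nop58 lay above fbl in each 28°C replicate. The lowest tested members were csnk2a3 at 0.190 ± 0.0265 RPKM, rexo1 at 1.39 ± 0.437, the GTPase efl1 at 1.61 ± 0.786, the RNase P and MRP subunit rpp30 at 1.75 ± 0.880 and drosha, the nuclease that also processes microRNA precursors, at 1.97 ± 0.241.

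**Figure D1:**
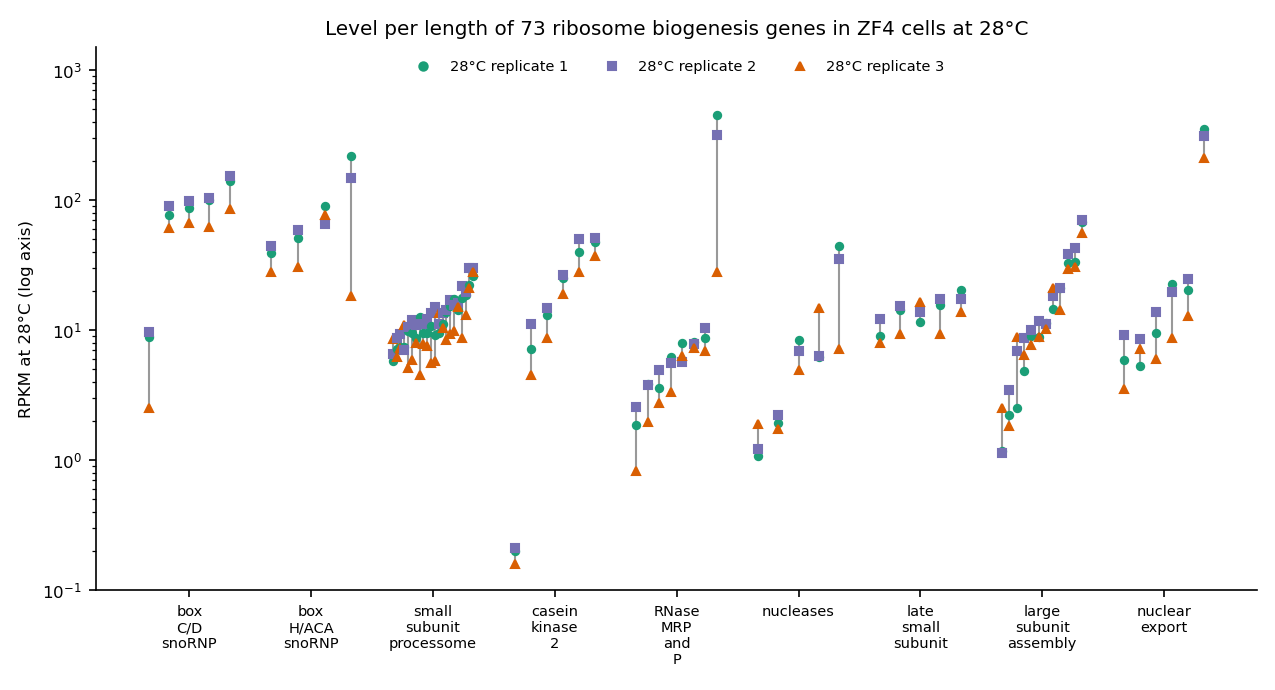
Levels of the 73 tested members at 28°C in deposited RPKM (log axis), grouped by their role in ribosome production, with 1 point per replicate. The highest means are those of ran, pop1, nop10 and the box C/D proteins fbl, nop58 and nop56, and replicate 3 lies far below replicates 1 and 2 for pop1 and nop10.

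No member passed the test in the comparison with 28°C at either time (edgeR's quasi-likelihood test with Benjamini-Hochberg adjustment over all 19622 tested genes, adjusted p under 0.05). After 5 days 0 of the 73 members were called, where 0% of all genes were called, and after 30 days 0 members, where 0.0612% of all genes (12) were called. The lowest adjusted p of a member in edgeR was 0.242 (nob1) after 5 days and 0.223 (xpo1b) after 30 days. With DESeq2, 1 member (nob1, higher) was called after 5 days, where 2.94% of all genes were called, and 0 members after 30 days, where 4.82% were. With the replicate number as a block in edgeR 0 members were called at either time, against 0.26% and 1.51% of all genes. At an unadjusted p under 0.05, edgeR gave 2 members after 5 days (2.74% of members, 11.3% of all genes) and 6 after 30 days (8.22% of members, 13.7% of all genes), so the members' shares lay below those of all genes. DESeq2 gave the same numbers of members, 2 (13.3% of all genes) and 6 (15.6%), and the block 6 (16.8% of all genes) and 10 (19.8%).

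The members' fold changes were centred near 0. Their median log2 fold change was -0.08 after 5 days and -0.03 after 30 days, against -0.01 at both times over all tested genes, and 41 and 40 of the 73 lay below 0 (50.6% and 50.7% of all genes did). The fold changes ran from -0.87 (nvl) to 0.93 (csnk2a3) after 5 days and from -1.11 (xpo1b) to 1.18 (csnk2a3) after 30 days. The 95% interval of the log2 fold change lay wholly within a 2-fold change in either direction for 32 members after 5 days (43.8%, against 26.6% of all genes) and for 28 after 30 days (38.4%, against 24.4%). For the remaining members the interval reached past a 2-fold change in at least 1 direction. The members' intervals were narrower, with a median half-width of 0.79 at both times, against 0.96 over all genes. The shares above thus also depend on the width of the intervals.

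**Figure D2:**
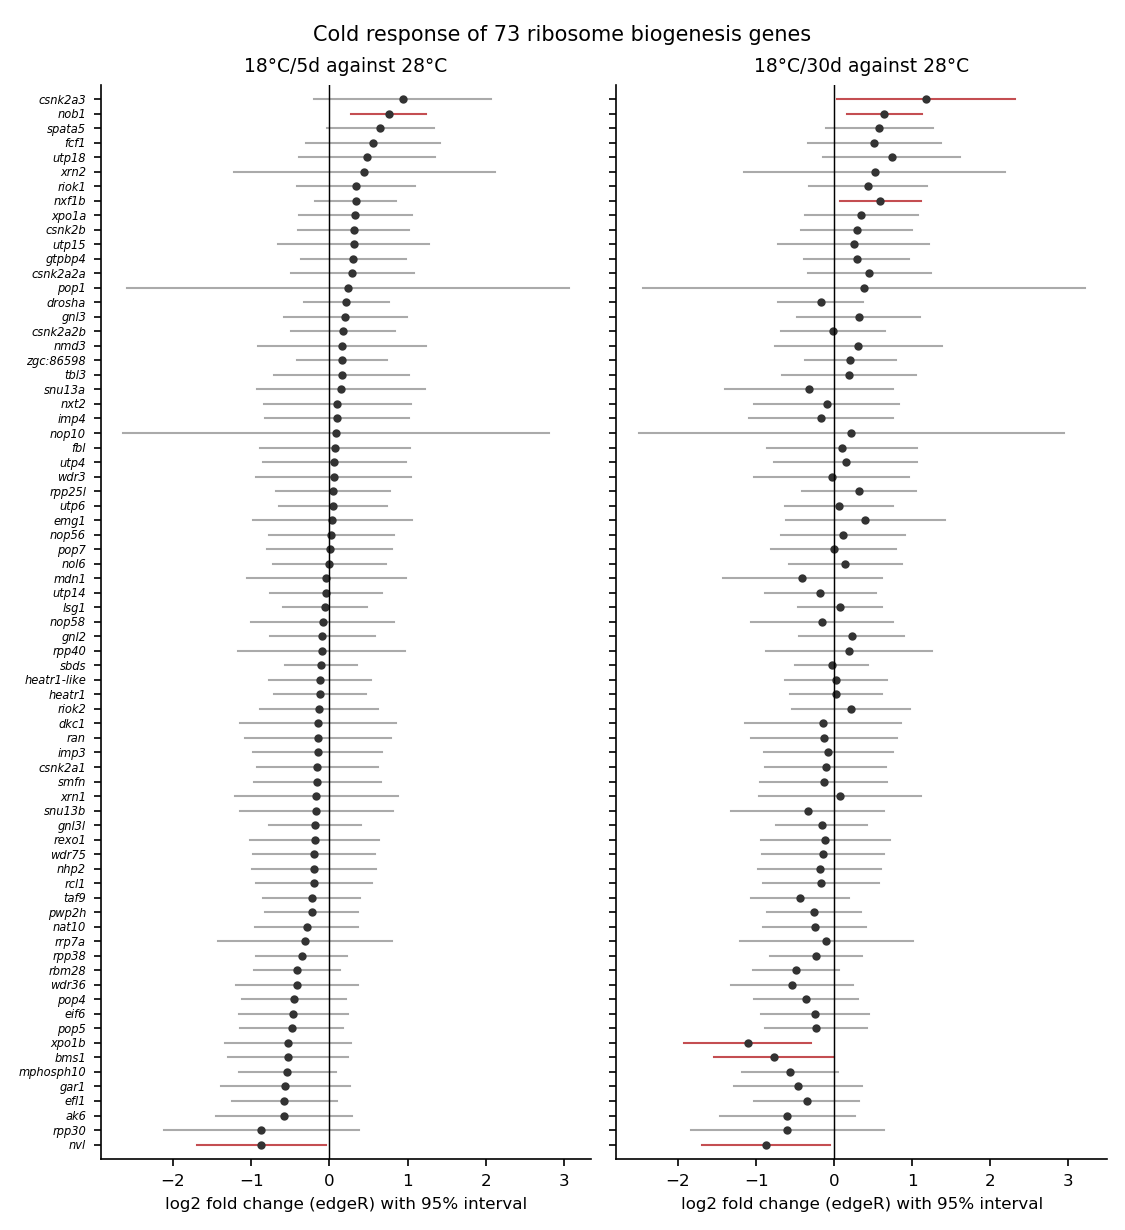
Log2 fold change (x axis) of the 73 tested members against 28°C after 5 and 30 days, with its 95% interval from edgeR, in the order of the values after 5 days. Intervals in red have an unadjusted p under 0.05 (2 members after 5 days and 6 after 30 days), and none of the 73 passed after adjustment.

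The members moved together from library to library within a condition. At 28°C replicate 3 was the lowest of its condition for 60 of the 73 members (82.2%, against 42.3% of all genes). After 5 days replicate 1 was the lowest for 53 (72.6%, against 28.8%). After 30 days replicate 2 was the highest for 62 (84.9%, against 32.4%) and the highest of all 9 libraries for 37 (50.7%, against 13.8%), and replicate 3 was the lowest for 51 (69.9%, against 37.3%). The summed level of the members was 9030, 8147 and 5262 CPM in replicates 1, 2 and 3 at 28°C, 6770, 7977 and 7448 after 5 days, and 7423, 10051 and 5299 after 30 days. The 3 conditions overlapped in this sum.

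As a result, the direction against 28°C depended on the replicate number. After 5 days the median log2 difference of the members from the 28°C library of the same number was -0.51 for number 1, -0.08 for number 2 and 0.48 for number 3, and 59, 43 and 20 of the 73 were lower (46.7%, 48% and 50.3% of all genes). After 30 days the medians were -0.31, 0.25 and -0.03, with 59, 20 and 38 members lower (45.5%, 51.3% and 48.1% of all genes). With scaling by total counts in place of TMM they were -0.40, -0.06 and 0.35 after 5 days and -0.21, 0.01 and -0.01 after 30 days, so the higher value of number 2 after 30 days rests on the scaling. The proliferation genes, which were at their lowest in replicate 3 at 28°C, had medians of -0.75, -1.09 and 3.13 for numbers 1, 2 and 3 after 5 days and of -1.10, -0.24 and 2.52 after 30 days, and their part in the members' differences was not tested. Without replicate 3 of 28°C the members' median log2 fold change was -0.21 after 5 days and -0.17 after 30 days, and 56 and 53 of the 73 lay below 0. Still 0 were called by edgeR, with 4 and 5 at an unadjusted p under 0.05. The shares of all genes in this fit are not given, so these counts cannot be set against a background. Without replicate 1 of 28°C the medians were 0.08 and 0.07.

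**Figure D3:**
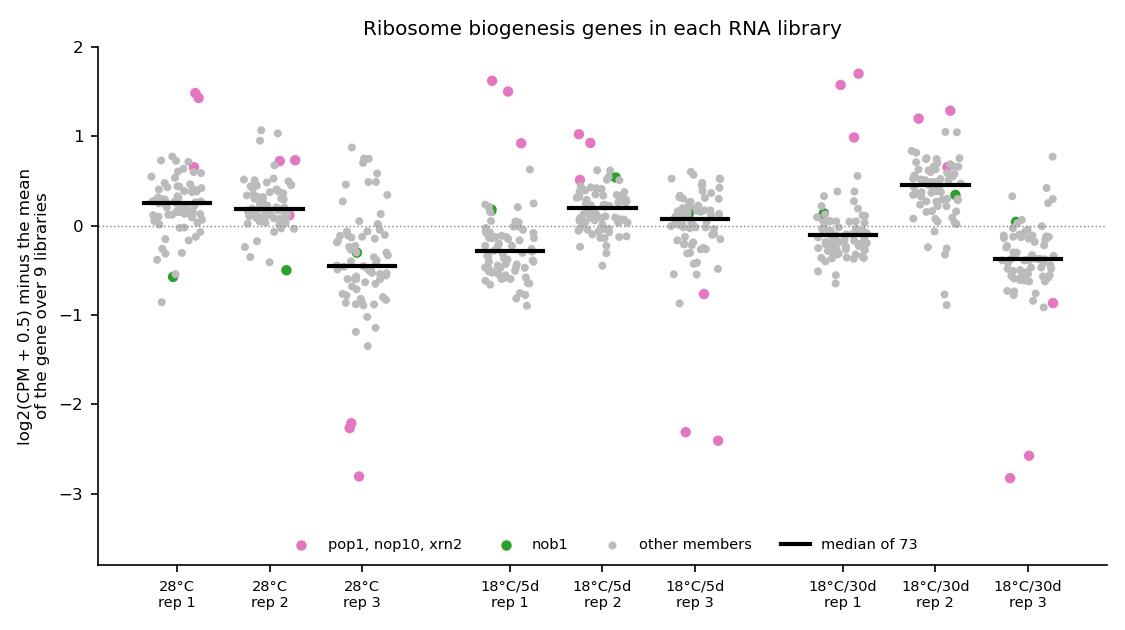
Log2(CPM + 0.5) of each of the 73 tested members minus its mean over the 9 RNA libraries (y axis), by library, with the median of the members as a black bar. Not drawn are the deviations from the mean of the gene over the 3 libraries of its own condition. Their medians were -0.41 in replicate 3 at 28°C and -0.26 in replicate 1 after 5 days. After 30 days they were 0.43 in replicate 2 and -0.32 in replicate 3. The members pop1, nop10 and xrn2 (pink) are low in all replicates with the number 3, and nob1 (green) is low in all 28°C replicates.

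Few members kept apart from the 28°C libraries in all replicates. After 5 days the 3 libraries lay outside the range of the 28°C libraries for 2 members on the higher side (9.27% of all genes) and 4 on the lower side (8.35%), in all 8.22% of the members against 17.6% of all genes. These were nob1 and spata5, which were higher, and gar1, mphosph10, rbm28 and pop5, which were lower. After 30 days 3 members were higher without overlap (nob1, nxf1b and csnk2a3, against 10.3% of all genes) and 4 lower (nvl, bms1, mphosph10 and rbm28, against 8.5%), in all 9.59% against 18.8%. The members nob1, mphosph10 and rbm28 stood apart from 28°C at both times. Since both comparisons use the same 28°C libraries, the comparisons are not independent of each other. The share of all genes that stood apart at both times is not given, so these members cannot be set against a background.

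Among the proteins of the box C/D snoRNP, which places methyl groups on the ribosomal RNA, no member passed the test, and the conditions overlapped for all 5. The median log2 fold change of the 5 was 0.03 after 5 days and -0.16 after 30 days. The methyltransferase fbl was at 292, 279 and 148 CPM at 28°C, 182, 280 and 297 CPM after 5 days and 197, 402 and 170.5 CPM after 30 days. The scaffold protein nop58 was at 555, 506 and 289 CPM at 28°C, 301, 402 and 571 CPM after 5 days and 346, 569 and 296 CPM after 30 days. Both genes followed the pattern of the libraries, with replicate 3 low at 28°C and replicate 1 low after 5 days. Their log2 fold changes were 0.08 and 0.10 for fbl and -0.08 and -0.16 for nop58 after 5 and 30 days. For nop56, the partner of nop58, they were 0.03 and 0.11, with 95% intervals of -0.77 to 0.82 and -0.68 to 0.91. The RNA-binding protein snu13 has a pair of copies, and snu13b had 2.61 to 11.1 times the counts of snu13a.

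The box H/ACA snoRNP, whose catalytic protein dkc1 (dyskerin) turns uridine into pseudouridine, had 3 of 4 members below 0 at both times, none past the test. The level of dkc1 was 154, 156 and 77.4 CPM at 28°C, 75.3, 119 and 156 CPM after 5 days and 89.0, 186 and 76.2 CPM after 30 days. Its log2 fold change was -0.15 ± 0.44 (SE) after 5 days and -0.14 ± 0.44 after 30 days, and the libraries overlapped. The glycine and arginine rich subunit gar1 was at 196, 126 and 142 CPM at 28°C, 78.3, 114 and 122 CPM after 5 days and 80.0, 173 and 82.8 CPM after 30 days. All 18°C/5d libraries lay below all 28°C libraries for gar1, with a log2 fold change of -0.56 ± 0.37 (edgeR adjusted p = 0.645), and after 30 days replicate 2 lay within the 28°C range (-0.47 ± 0.36, adjusted p = 0.648). Leaving out 1 library at a time moved the gar1 values to between -0.69 and -0.35 (without replicate 1 of 28°C) after 5 days, and to between -0.93 (without replicate 2 of 18°C/30d) and -0.26 (without replicate 1 of 28°C) after 30 days. The small subunit nhp2 had log2 fold changes of -0.20 and -0.19.

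For nop10, the fourth protein of this particle, the replicate number outweighed the condition. It was at 141, 82.8 and 9.99 CPM at 28°C, 142, 95.4 and 9.66 CPM after 5 days and 150, 115 and 6.61 CPM after 30 days. The gene annotated as pop1 (995, 614 and 52.3, then 1137, 751 and 69.1, then 1202, 902 and 61.5 CPM) and the 5′ to 3′ exonuclease xrn2 (456, 314 and 62.1, then 549, 413 and 170, then 575, 456 and 159 CPM) did the same. These 3 members (4.11%) were at least 2-fold lower in replicate 3 than in replicates 1 and 2 in all conditions, as were 3.04% of all tested genes, and no member was at least 2-fold higher in all. The standard error of their log2 fold changes was 0.74 or more, up to 1.25 for pop1, in the fit without the replicate number. Within each replicate number pop1 and xrn2 lay above 28°C at both times, as did 22% of all tested genes at each time. For nop10 the replicate numbers differed in direction. The agreement of directions was not tested as such. The edgeR fit with the replicate number as a block called no member at either time. Without these 3 genes the summed level of the members was 7438, 7137 and 5138 CPM at 28°C, 4941, 6718 and 7200 after 5 days and 5497, 8578 and 5072 after 30 days.

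The small subunit processome, the largest role group with 22 members, had a median log2 fold change of -0.08 after 5 days and -0.05 after 30 days, with 13 and 12 members below 0 and none past the test. The largest rises were those of fcf1 (0.55 and 0.52) and utp18 (0.48 and 0.73), and both genes overlapped with 28°C at both times. Without replicate 3 of 28°C their values after 5 days were 0.31 and 0.17. The GTPase bms1, which is needed for the early cuts of the precursor, was at 116, 96.4 and 144 CPM at 28°C, 45.6, 87.0 and 115 CPM after 5 days and 59.7, 72.1 and 76.4 CPM after 30 days. After 30 days all bms1 values lay below those at 28°C, with a log2 fold change of -0.77 ± 0.34 (SE; 95% interval -1.54 to -0.01, edgeR adjusted p = 0.36), and after 5 days replicate 3 overlapped with 28°C (-0.53 ± 0.34, adjusted p = 0.639). Leaving out 1 library at a time gave -0.62 (without replicate 3 of 28°C) to -0.90 after 30 days. After 5 days it gave -0.24 (without replicate 1 of 18°C/5d) to -0.85 (without replicate 3 of 18°C/5d), and -0.37 without replicate 3 of 28°C. The U3 particle protein mphosph10 was at 14.1, 14.0 and 17.8 CPM at 28°C, 8.30, 13.4 and 9.98 CPM after 5 days and 11.1, 12.1 and 7.72 CPM after 30 days. It lay below the 28°C libraries at both times, by a small margin in replicate 2 after 5 days, with log2 fold changes of -0.54 and -0.57 (edgeR adjusted p = 0.511 and 0.416). The large scaffold heatr1 had values of -0.12 and 0.03, the RNA acetyltransferase nat10 of -0.29 and -0.25, the methyltransferase emg1 of 0.04 and 0.40, and utp14, which activates a helicase, of -0.04 and -0.18. The intervals of all 4 genes held 0.

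The table held a second gene annotated as heatr1 (called heatr1-like here), with 1.81 to 1.90 times the counts of heatr1 in every library. At 28°C heatr1 was at 108, 106 and 95 CPM and heatr1-like at 197, 198 and 179 CPM. How reads were shared between such near copies is not given in the sources used here, so the split between them is uncertain. The same holds for snu13a and snu13b, the casein kinase 2 genes, and xpo1a and xpo1b.

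Casein kinase 2, a protein kinase that is part of the processome annotation and has many other substrates, had 5 of 6 members above 0 after 5 days and 4 of 6 after 30 days, with medians of 0.23 and 0.25 on the log2 scale. Without replicate 3 of 28°C the 5-day values were 0.08 (csnk2b), 0.0002 (csnk2a2a), -0.05 (csnk2a2b), -0.02 (zgc:86598) and -0.32 (csnk2a1). The same fit gave 0.15 for csnk2a2a and -0.25 for csnk2a2b after 30 days. For csnk2a3 the 5-day value was 0.48 or more with any library left out. The regulatory subunit csnk2b was at 189, 210 and 113 CPM at 28°C, 199.6, 226 and 210 CPM after 5 days and 169.5, 270.2 and 186 CPM after 30 days. Its conditions overlapped, with log2 fold changes of 0.31 and 0.29. The rare csnk2a3 had 0.675, 0.638 and 0.458 CPM at 28°C, 1.74, 1.05 and 0.590 after 5 days and 0.897, 1.81 and 1.32 after 30 days. After 30 days all its libraries lay above 28°C (log2 fold change 1.18 ± 0.50, edgeR adjusted p = 0.351), at a level where few reads decide the value.

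RNase MRP, which cuts the precursor between the 2 subunits' RNAs, and the related RNase P, which trims transfer RNAs, share most of their protein subunits. Of the 8 subunits listed, 5 lay below 0 at each time, with medians of -0.23 and -0.12 and none past the test. They were not the same 5, since rpp40 lay below 0 after 5 days only and pop7 after 30 days only. The subunit rpp30 was at 9.43, 11.4 and 3.5 CPM at 28°C, 3.49, 7.13 and 2.68 after 5 days and 4.41, 8.31 and 3.33 after 30 days. It was lower within every replicate number at both times, but the conditions overlapped through replicate 3 at 28°C (log2 fold changes -0.87 ± 0.55 and -0.60 ± 0.55). Leaving out 1 library at a time gave -1.40 (without replicate 2 of 18°C/5d) to -0.54 (without replicate 2 of 28°C) after 5 days and -1.07 (without replicate 2 of 18°C/30d) to -0.28 (without replicate 2 of 28°C) after 30 days. The subunit pop5 had 8.02, 5.01 and 5.33 CPM at 28°C and 4.94, 4.84 and 3.36 after 5 days, apart by less than 0.1 CPM between the nearest libraries. Among the nucleases, xrn1, the cytoplasmic relative of xrn2, had the opposite pattern to xrn2 and was highest in the number 3 libraries (54.9, 49.3 and 111 CPM at 28°C, 43.8, 48.1 and 100.2 after 5 days, 51.1, 62.8 and 113 after 30 days). For drosha the log2 fold changes were 0.22 and -0.17.

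In the late steps of the small subunit, nob1 had the lowest unadjusted p of the members after 5 days. This endonuclease makes the final cut that frees the 3′ end of the mature 18S ribosomal RNA in the cytoplasm. It was at 44.8, 47.2 and 54.2 CPM at 28°C (48.7 ± 4.88, SD, n = 3), 75.8, 97.5 and 73.5 CPM after 5 days (82.3 ± 13.2) and 73.7, 85.1 and 69.0 CPM after 30 days (75.9 ± 8.29). All 6 libraries from 18°C lay above all 28°C libraries, and the share of all genes that did so is not given. The log2 fold change was 0.76 ± 0.21 (SE; 95% interval 0.27 to 1.24) after 5 days and 0.64 ± 0.21 (0.16 to 1.12) after 30 days. Adjusted p-values were 0.242 and 0.232 in edgeR, 0.122 and 0.129 with the replicate block, and 0.0402 and 0.0799 in DESeq2, so that DESeq2 after 5 days was the only setting run that called it. Without replicate 3 of 28°C the log2 fold changes were 0.84 and 0.72. The kinases riok1 and riok2, which act on the same late particle, had log2 fold changes of 0.34 and 0.43, and of -0.13 and 0.22, with all conditions overlapping. The gene ak6 lay below 0 at both times (-0.58 and -0.60), as did taf9 (-0.22 and -0.44), which shares its KEGG entry with ak6 and is known as a transcription factor subunit.

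**Figure D4:**
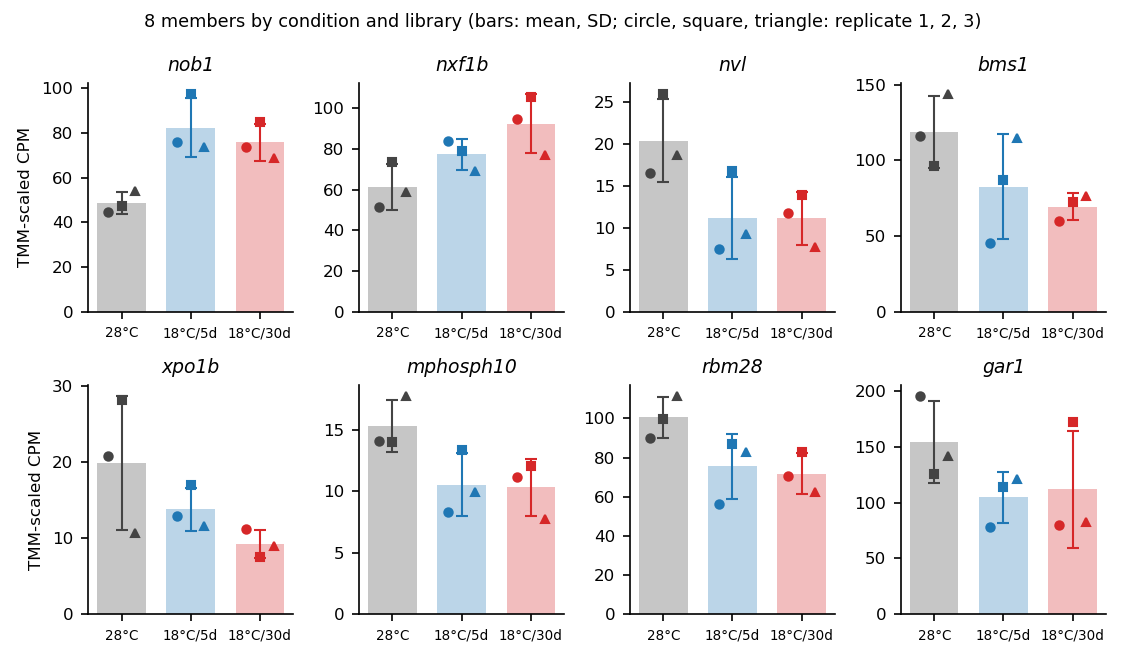
TMM-scaled CPM of 8 members in the 3 conditions, as bars for the mean of 3 libraries, SD as error bars and 1 point per replicate. For nob1 all points from 18°C lie above the points at 28°C, for mphosph10 and rbm28 below, for nvl, bms1 and nxf1b the points separate after 30 days only, for gar1 after 5 days only, and for xpo1b they overlap.

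Of the 12 members that assemble the large subunit, 9 lay below 0 after 5 days and 7 after 30 days, with a median of -0.10 at both times. The AAA ATPase nvl, which removes assembly factors from the early particle, was at 16.6, 26.0 and 18.7 CPM at 28°C, 7.5, 16.7 and 9.30 CPM after 5 days and 11.7, 13.9 and 7.72 CPM after 30 days. Its values after 30 days lay below all 28°C values, while after 5 days replicate 2 reached just above the lowest 28°C value. The log2 fold change was -0.87 ± 0.36 (SE) at both times (edgeR adjusted p = 0.414 and 0.339). The RNA-binding protein rbm28 was at 90.2, 99.9 and 111 CPM at 28°C, 56.4, 87.0 and 83.1 CPM after 5 days and 70.4, 82.9 and 62.2 CPM after 30 days. All rbm28 values from 18°C lay below 28°C, with log2 fold changes of -0.41 ± 0.24 and -0.48 ± 0.24 (adjusted p = 0.594 and 0.440 in edgeR). The 5-day value was -0.24 without replicate 1 of 18°C/5d, and over the fits that left out 1 library it reached -0.53, while the 30-day value ran from -0.60 to -0.39.

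The giant ATPase mdn1 was at 141, 340 and 415 CPM at 28°C, 163, 341 and 368 CPM after 5 days and 217, 203 and 254 CPM after 30 days. The spread at 28°C was as wide as the whole range, and the log2 fold changes were -0.04 ± 0.45 and -0.41 ± 0.45. Without replicate 3 of 28°C they were 0.27 and -0.10. The ATPase spata5 was higher without overlap after 5 days (4.93, 6.73 and 3.41 CPM at 28°C, 6.82, 8.30 and 8.62 after 5 days), with a log2 fold change of 0.65 ± 0.30 (edgeR adjusted p = 0.468), which was 0.44 without replicate 3 of 28°C and 0.92 without replicate 2 of 28°C. The nucleolar GTPases gnl2 (-0.09 and 0.22), gnl3 (0.21 and 0.31) and gtpbp4 (0.30 and 0.29) overlapped in all conditions. The factor eif6, which keeps the 2 subunits apart until the large one is mature, had log2 fold changes of -0.46 ± 0.31 and -0.24 ± 0.31, the second of which was -0.57 without replicate 2 of 18°C/30d and -0.10 without replicate 1 of 18°C/30d. Its release needs the GTPase efl1 and sbds, the protein mutated in Shwachman-Diamond syndrome. For sbds the values were close in all libraries, 47.2, 40.9 and 36.4 CPM at 28°C, 39.7, 42.4 and 33.6 after 5 days and 41.9, 44.5 and 35.2 after 30 days, and its 95% intervals of -0.57 to 0.36 and -0.50 to 0.43 exclude a 2-fold change. For efl1 the 28°C value came from 1 library to a large part (11.3, 9.59 and 20.4 CPM, against 8.70 to 11 CPM in the 6 libraries from 18°C).

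Of the 6 tested genes of nuclear export, the exportin copy xpo1b had the lowest log2 fold change of all members after 30 days. It was at 20.8, 28.2 and 10.6 CPM at 28°C, 12.9, 17.0 and 11.5 CPM after 5 days and 11.2, 7.53 and 8.92 CPM after 30 days. The log2 fold change was -1.11 ± 0.36 (SE; 95% interval -1.93 to -0.29) after 30 days and -0.53 ± 0.36 after 5 days, with edgeR adjusted p of 0.223 and 0.667. Replicate 3 at 28°C overlapped with the cold libraries, and without it the values were -1.41 and -0.83 (adjusted p = 0.116 and 0.323). Without replicate 2 of 28°C they were -0.77 and -0.19 (adjusted p = 0.469 and 0.948 in edgeR), so the size of the difference rests on which 28°C libraries enter. The other copy, xpo1a, was at 70.2, 75.0 and 37.6 CPM at 28°C, 63.1, 67.3 and 99.9 CPM after 5 days and 65.6, 74.0 and 93.3 CPM after 30 days, and its log2 fold changes were 0.33 and 0.35. These were 0.08 and 0.09 without replicate 3 of 28°C, and 0.51 and 0.52 without replicate 2 of 28°C. The counts of xpo1a were 3.37, 2.66 and 3.54 times those of xpo1b in replicates 1, 2 and 3 at 28°C, 4.87, 3.97 and 8.67 times after 5 days and 5.85, 9.83 and 10.5 times after 30 days. All 6 ratios from 18°C thus lay above the 3 ratios from 28°C, a pattern noticed after the values were seen and not tested.

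The messenger RNA exporter nxf1b was at 51.6, 73.6 and 58.9 CPM at 28°C, 83.9, 79.2 and 69.1 CPM after 5 days and 94.9, 106 and 76.9 CPM after 30 days. After 30 days all its values lay above 28°C (log2 fold change 0.59 ± 0.23, SE, edgeR adjusted p = 0.309), and after 5 days they overlapped (0.33 ± 0.23, adjusted p = 0.674). The GTPase ran, at 1637, 1272 and 829 CPM at 28°C, 889.6, 1203 and 1286 CPM after 5 days and 879, 1669 and 863 CPM after 30 days, overlapped in all conditions (-0.15 and -0.13). The adaptor nmd3, which links the large subunit to exportin, had log2 fold changes of 0.16 ± 0.47 and 0.31 ± 0.47. Without replicate 3 of 28°C they were -0.18 and -0.04.

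The comparison of 18°C/30d with 18°C/5d asks whether the members moved between the cold times. No member passed (0 of 73, where 0% of all genes were called by edgeR). At an unadjusted p under 0.05, edgeR gave 0 members and 1.28% of all genes, with the block 0 members and 2.53%, and DESeq2 0 members and 1.67%. After adjustment DESeq2 called 0 members and 0.0102% of all genes. The libraries of the cold times did not overlap for 2 members that were higher at the later time (3.19% of all genes) and 1 that was lower (2.31%), in all 4.11% against 5.5%. The median log2 fold change was 0.04, with 26 of 73 below 0 (47.9% of all genes), and 52 members (71.2%, against 37.3% of all genes) had a 95% interval within a 2-fold change. Within replicate numbers the medians were 0.20, 0.24 and -0.42, and 12, 16 and 64 of the 73 were lower (47.2%, 51% and 48.7% of all genes), so number 3 moved against the others. With scaling by total counts the median of number 2 was near 0 (-0.0032).

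Genes of ribosome production outside the KEGG list gave a similar count of calls in edgeR. Of 37 nucleolar and assembly factors (such as npm1a, the abundant histone chaperone nucleophosmin), 0 were called by edgeR or DESeq2 at either time. Their medians were -0.04 and -0.05. At an unadjusted p under 0.05 edgeR gave 0 of the 37 at either time (11.3% and 13.7% of all genes). With the replicate block it gave 1 and 3 of the 37 (16.8% and 19.8%). Of 10 genes of RNA polymerase I and its factors, edgeR called 0 and DESeq2 1 at each time (2.94% and 4.82% of all genes in DESeq2). At an unadjusted p under 0.05 edgeR gave 1 at each time (11.3% and 13.7% of all genes). With the replicate block it gave 3 at each time (16.8% and 19.8%). Of the 10 genes, ubtfl had the highest log2 fold change at both times. It is annotated as a relative of the upstream binding factor of the ribosomal RNA promoter. Its level was 72.8, 66.5 and 81.5 CPM at 28°C, 130.2, 131 and 122.9 after 5 days and 130.1, 124 and 132 after 30 days. All cold values of ubtfl lay above 28°C, with log2 fold changes of 0.80 and 0.81. Its adjusted p was 0.207 and 0.145 in edgeR and 0.00106 and 0.000504 in DESeq2, so the call depended on the tool. The 80 genes of the ribosome pathway had medians of -0.33 and -0.26, with 78 and 73 of the 80 below 0 and 0 called by edgeR or DESeq2 at either time. Within replicate numbers 1, 2 and 3 their medians were -0.74, -0.43 and 0.37 after 5 days and -0.62, 0.01 and -0.17 after 30 days.

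In the MeDIP data, 62 of the 76 members had at least 1 peak of methylated DNA, 240 of the 160561 peaks in all, and 18 members had 1 or more of 21 promoter peaks. Of all genes in the RNA table, 57.5% had at least 1 peak. Most member peaks lay in introns (140) or exons (70), and 9 lay downstream. In CpG islands lay 6 of the 240 member peaks. This is a lower share than the 6.36% of all 160561 peaks, with or without a gene. Peaks were called by a read ratio of at least 2 (or at most 0.5) and a false discovery rate of at most 0.01, which compares libraries and not conditions, since each condition had 1 library. After 5 days 50 member peaks were called, 22 higher and 28 lower (20.8%, against 23.7% of all peaks), and after 30 days 49, 24 higher and 25 lower (20.4%, against 20.2%). Over all regions the members' shares were thus near the background. Of the 21 promoter peaks 6 were called after 5 days (28.6%, against 22.6% of all promoter peaks). After 30 days 7 were (33.3%, against 19.7%), and each of these promoter calls had a 0 in a compared library. Exon peaks of members were called at 11.4% and 25.7% (20.9% and 18.6% of all exon peaks). Intron peaks were called at 25% and 16.4% (24.6% and 20.8%). Of the 50, 47 were listed at 0 in the 28°C library or the 18°C/5d library, and of the 49, 48 were listed at 0 in the 28°C or the 18°C/30d library. Over all peaks the same held for 34415 of the 38075 called after 5 days and 31932 of the 32357 called after 30 days. Over all 160561 peaks the smallest count above 0 was 3, 2 and 3 reads in the control, 5-day and 30-day libraries. No peak was thus listed with 1 read, so a 0 in this table may be a value under a minimum rather than a count of reads, and no upper limit is given for it.

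Of the 240 member peaks, 16 were called at both times, 6.67% against 7.88% of all peaks, and 2 of these lay in promoters. The promoter of nmd3 (chr15:1646192-1646596 of the Zv9 build, in a CpG island) had 12 reads at 28°C and 0 in both cold libraries. The promoter of rpp30 (chr12:17525560-17525867) had 11 reads at 28°C and 0 in both. Counts this low leave a broad range of true levels. The transcript level of nmd3 overlapped between conditions, and so did that of rpp30. The promoter of nob1 (chr18:4513323-4513812) had 0 reads in the control and 5-day libraries and 9 reads after 30 days. The strongest promoter peak was that of utp15 (chr18:6144286-6145371), a protein of the processome, with 56, 58 and 45 reads in the control, 5-day and 30-day libraries, and it was not called. The promoter of utp4 (chr18:14203712-14204355), another processome protein, had 26 reads at 28°C, 0 after 5 days and 27 after 30 days, so that the difference was found in 1 cold library and not in the other.

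**Figure D5:**
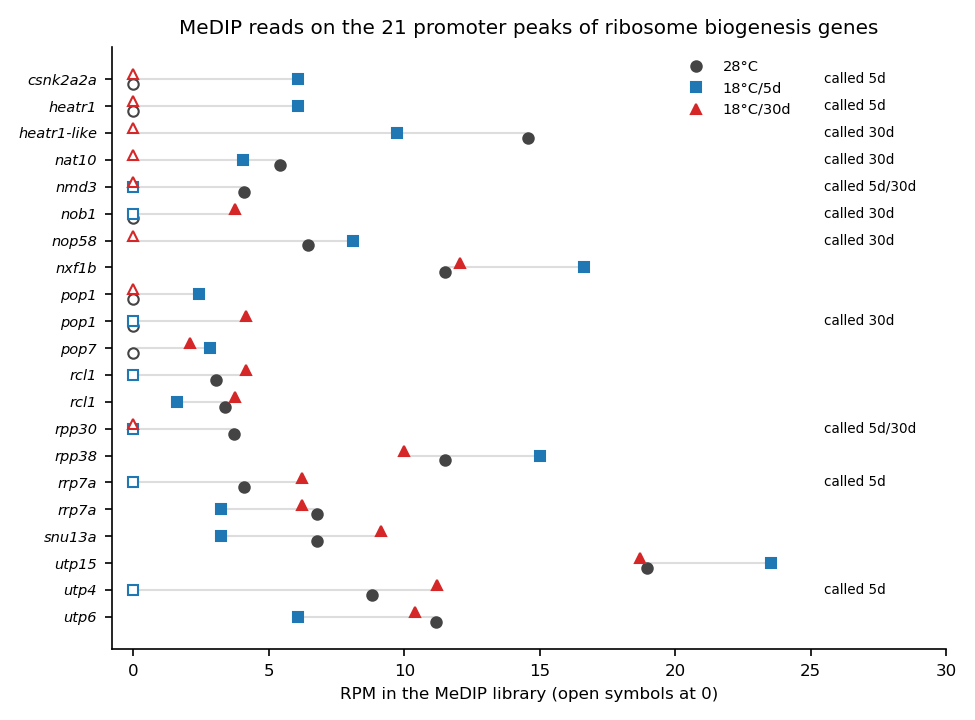
Reads scaled to the total of reads on peaks (RPM) of the 21 promoter peaks of members in the 3 MeDIP libraries, 1 library per condition, made from 3 pooled cultures each. The utp15 peak is at 19.0, 23.5 and 18.7 RPM in the control, 5-day and 30-day libraries, and the nmd3 and rpp30 peaks are at 0 in both cold libraries.

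The members with the most peaks were efl1 and heatr1-like. At 1 or both times 83 member peaks were called (34.6%, against 36% of all peaks). The gene heatr1-like had 14 peaks, of which 7 (50%) were called at 1 or both times. Of these 7, 5 in introns and exons were listed with reads after 5 days only (67, 41, 35, 47 and 86 reads) and at 0 in the other libraries. A further exon peak of this gene (chr12:10408432-10410102) had 60 reads at 28°C and 0 in both cold libraries, and its promoter (chr12:10451625-10453142) had 43, 24 and 0 reads in the control, 5-day and 30-day libraries. The gene efl1 had 36 peaks, of which 12 (33.3%) were called at 1 or both times, near the share of all peaks. Of these, 11 were lower in at least 1 cold library, such as the intron peaks chr7:13053238-13053589 with 31, 0 and 0 reads and chr7:13120128-13121162 with 42, 12 and 0 reads. The peaks of a gene share its region and are not replicates of each other. The members had 106 peaks that no library left without a read, and of these 1 was called after 5 days, the wdr36 peak chr5:57318398-57319268 with 32, 59 and 14 reads, and none after 30 days.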

How the data were processed

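The authors deposited 1 RNA table with raw read counts and RPKM per gene and library, and MeDIP peak tables with read counts and RPM per peak. The deposited RPKM equalled counts divided by gene length and column total within 0.005, and RPM was scaled to the total of reads on peaks. RNA alignment and counting are not given in the sources used here. The submitters' notes name danRer7, Bowtie2 and bedtools without a role. For the MeDIP reads, the paper states alignment to danRer7 with Bowtie2 and counting on the merged peaks with Bedtools. A further 9 columns named TPM equalled CPM and were not used, nor were the authors' comparison columns (ratios, fold changes, p-values, marks). The MeDIP input library was not analysed here.

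Counts were tested with edgeR 4.0.16 (TMM, filterByExpr, quasi-likelihood, 9 libraries in 1 fit, no block, R 4.3.3), adjusted over 19622 genes. Means and SDs are of TMM-scaled CPM, or of deposited RPKM where RPKM is named. Differences within a replicate number used log2(CPM + 0.5). MeDIP peaks were compared by Fisher's exact test (scipy 1.17.1), adjusted over all 160561 peaks, with the ratio taken of RPM + 1. DESeq2 1.42.0, other scalings and filters, a replicate block and left-out libraries were tried. Scripts were tested on simulated data. Libraries were paired by the replicate numbers of the labels, and no label says what a number shares. Deviations from the group means correlated at 0.251 to 0.653 in all 9 same-number pairs (-0.671 to 0.491 in the 18 others). Deviations within a group sum to 0, so these correlations are not free of each other. Of 18 matches of a library to another condition, 14 were best with its own number. Members, lists and role groups were chosen with earlier results of these data known. Genes named are those that did not overlap with 28°C and exceeded the median CPM of tested genes, a fixed core, the 5 highest and lowest RPKM, and promoter peaks called at both times. Other genes and peaks were named after their values were seen.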

Additional observations from a re-analysis of the deposited data

Results flagged for a closer look

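The gene nxt2, a small partner of the messenger RNA exporter, was on opposite sides of 28°C at the cold times, by small amounts. In each replicate number it exceeded the 28°C value after 5 days and lay below it after 30 days, with 29.0, 37.4 and 15.7 CPM at 28°C, 30.7, 38.3 and 19.2 after 5 days and 27.8, 33.9 and 15.0 after 30 days. The log2 fold change against 28°C was 0.10 after 5 days and -0.10 after 30 days (edgeR adjusted p = 0.987 and 0.947), and the conditions overlapped. Of all tested genes, 22% were higher in all replicate numbers after 5 days and 18.6% were lower in all after 30 days. The log2 fold change of 18°C/30d against 18°C/5d was -0.20, and edgeR gave it an unadjusted p of 0.638 and an adjusted p of 1.00. The agreement of directions within the replicate numbers was not tested.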

How the results depend on the processing

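Members called by edgeR were 0 in all 3 comparisons under the main setting, upper-quartile scaling, no filter, only the compared libraries, a 2-fold minimum and each left-out library or replicate number (0 to 0). DESeq2 called 1 member after 5 days (nob1, adjusted p = 0.0402) and 0 in the other comparisons. With the replicate block no call of a member changed (0, 0 and 0 called), with medians of -0.07, -0.03 and -0.0049 after 5 days, after 30 days and between the cold times. With the block and without replicate 3, a setting chosen after seeing the data (as was scaling by total counts), calls were also 0 and the medians -0.32, -0.05 and 0.23. Leaving out libraries moved the median log2 fold change of members from -0.32 (without replicate 3) to 0.19 (without replicate 1) after 5 days, from -0.27 (without replicate 2 of 18°C/30d) to 0.18 (without replicate 1) after 30 days, and from -0.23 (without replicate 2 of 18°C/30d) to 0.22 (without replicate 3) between the cold times, so the sign of the median rests on single libraries. Of 1890 recomputed values of single genes, 211 changed sign without a call (183 with a library left out), 1 passed the threshold (nob1 in DESeq2) and 1678 did neither.

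Called MeDIP peaks of members depended on values listed as 0. From 50 after 5 days and 49 after 30 days they went to 14 and 4 when a library's smallest count took the place of each 0, to 1 and 0 when peaks with 0 reads in at least 1 library were left out, and to 25 and 17 at a false discovery rate of 0.001 and a 4-fold ratio. The shares of all peaks called were then 4.70% and 1.23%, 3.30% and 0.103%, and 8.10% and 7.26%. Read depth limits peaks with few reads, and 3 RNA libraries per condition limit the fold changes to a median half-width of the 95% interval of 0.79 on the log2 scale at both times.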
